A study of Homo sapiens with 12 samples.

Results

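Intergenic long non-coding RNA genes, which carry LINC symbols, were examined in cultured human retinal glia that carry the repeat of myotonic dystrophy. Members were all probe sets of the array whose single platform symbol was LINC followed by digits, and symbols with an antisense suffix were left out. This gave 962 probe sets for 935 symbols, of 36176 probe sets with 1 symbol and 135750 probe sets in all. A further 25 probe sets that carried a LINC symbol beside another symbol were not members, among them the one shared by LINC00673 and LINC00511.

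MIO-M1 cells are a human Müller glia line. They carried a pCMV-Tet3G transactivator, which lets doxycycline (Dox) switch on a pTRE3G-driven DMPK minigene with 648 CTG repeats in MIO-M1-CTG(648) cells and with 0 repeats in MIO-M1-CTG(0) cells. Both lines were selected with G418 and puromycin and came from 1 selected transactivator clone, so that each repeat length was represented by 1 stable line. RNA was taken from non-induced cells and from cells given 1 μg/mL Dox for 8 days, and each of the 4 groups had 3 arrays labelled as biological replicates, 12 arrays in all. Because each line was a separate transfectant, the repeat and other differences between the lines cannot be told apart in the comparison of lines, and the replicates measured only the spread within a line.

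Long intergenic non-coding RNAs are transcribed from stretches between protein-coding genes, are often spliced and polyadenylated, and are as a class known for low and cell-type-restricted expression. Some act on the chromatin around their own gene, some bind proteins or microRNAs, and for many no function is known. In myotonic dystrophy the expanded CUG repeat RNA accumulates in nuclear foci and binds MBNL splicing factors.

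Measurements were log2 signals of Clariom D Human arrays as deposited. Array medians over all probe sets lay between 4.24 and 4.32. Contrast A compared Dox-induced with non-induced MIO-M1-CTG(648) cells, and contrast B compared Dox-induced MIO-M1-CTG(648) with Dox-induced MIO-M1-CTG(0) cells. The threshold was a log2 fold change over 0.5 in either direction together with an unadjusted limma p below 0.005. An adjusted p is that of limma by the Benjamini-Hochberg method across the 36176 probe sets. As in the study's design, contrast A leaves out what passed with Dox in the cells without repeats, and contrast B leaves out what passed between both lines when not induced. Of the Müller glia markers all 12 were measured, 8 had a mean signal of at least 5 in every group, and RLBP1, AQP4 and KCNJ10 were below 5 in all groups. All 6 fibroblast and pericyte markers were at 5 or above in every group, with a summed level per array of 78.5 to 82.9 in MIO-M1-CTG(0) cells. The sum was 67.6 to 70.6 in non-induced and 62.3 to 63.8 in Dox-induced MIO-M1-CTG(648) arrays. LUM differed most, with means of 14.47 without and 14.76 with Dox in MIO-M1-CTG(0), against 7.44 and 6.35 in MIO-M1-CTG(648) cells. COL1A2 was higher in MIO-M1-CTG(648) cells, at 18.08 and 17.81 against 17.64 and 17.66, and the others of this list were lower. Of these 6 markers 3 were past the threshold in contrast A, 5 in contrast B before removal, 3 between the non-induced lines, 3 for the interaction and 0 with Dox in the cells without repeats. Of the 12 Müller glia markers these counts were 2, 5, 5, 1 and 0 in the same order. Between the non-induced lines CRYAB was higher (16.65 against 11.70) and SLC1A3 lower (11.01 against 12.93) in MIO-M1-CTG(648) cells. The part of these markers in the results below was not tested. The mean DMPK signal was 7.95 without and 8.54 with Dox in the line with 0 repeats, against 10.19 and 9.72 in those with the repeat. On its probe set DMPK was thus not higher with Dox in the cells with the repeat. Whether this probe set reads the minigene beside the cell's own gene is not given in the sources used here. The array values therefore cannot tell whether the minigene was induced. By RT-PCR with a minigene-specific primer, the paper reports minigene expression in both lines after a shorter Dox exposure, and none detectable without Dox. The paper also reports comparable levels between the lines by RT-qPCR, and nuclear foci only in Dox-induced cells with the repeat.

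By the RefSeq table (GRCh38.p14), 944 of the 962 probe sets belonged to genes typed as lncRNA, 9 to protein-coding genes and the others to pseudogenes. Promoter sequences were available for 637 of 914 lncRNA-typed genes. The windows below, from RefSeq (GRCh38.p14), hold 250 bases before and 50 bases from the gene's start. They are shown for 5 members described below, chosen after their values were seen. LINC00973, LINC01187 and LINC01444 passed the threshold with Dox in the cells with the repeat, LINC01411 passed with Dox in those without it, and LINC01535 differed between the lines. Capitals mark matches, on either strand, to TGANTCA (an AP-1 site), GGGNNNNNCC (an NF-kB site), GAAANNGAAA (an interferon response element, ISRE), TGACGTCA (a cAMP response element, CRE) or TATAAA (the letters of a TATA box). The windows lie at chr3:98914316-98914615 on the plus strand, chr5:174336104-174336403 on the plus strand, chr5:170199092-170199391 on the minus strand, chr18:14970419-14970718 on the minus strand and chr19:37251635-37251934 on the plus strand, in this order.
LINC00973: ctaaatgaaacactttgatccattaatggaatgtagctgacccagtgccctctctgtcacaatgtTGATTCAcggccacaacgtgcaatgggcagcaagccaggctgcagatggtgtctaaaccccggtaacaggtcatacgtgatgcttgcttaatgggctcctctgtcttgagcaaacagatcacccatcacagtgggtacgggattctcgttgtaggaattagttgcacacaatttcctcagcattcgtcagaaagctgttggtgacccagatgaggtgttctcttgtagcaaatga
LINC01411: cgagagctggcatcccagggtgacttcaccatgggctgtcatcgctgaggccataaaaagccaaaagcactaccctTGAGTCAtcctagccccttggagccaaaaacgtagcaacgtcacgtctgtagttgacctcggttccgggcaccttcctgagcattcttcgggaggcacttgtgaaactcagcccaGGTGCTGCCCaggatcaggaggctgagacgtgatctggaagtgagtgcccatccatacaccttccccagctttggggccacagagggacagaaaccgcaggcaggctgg
LINC01187: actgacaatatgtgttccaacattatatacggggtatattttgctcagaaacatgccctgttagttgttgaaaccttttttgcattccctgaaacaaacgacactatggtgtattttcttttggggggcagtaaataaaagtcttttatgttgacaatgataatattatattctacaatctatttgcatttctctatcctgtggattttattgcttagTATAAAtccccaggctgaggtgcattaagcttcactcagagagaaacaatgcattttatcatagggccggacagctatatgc
LINC01444: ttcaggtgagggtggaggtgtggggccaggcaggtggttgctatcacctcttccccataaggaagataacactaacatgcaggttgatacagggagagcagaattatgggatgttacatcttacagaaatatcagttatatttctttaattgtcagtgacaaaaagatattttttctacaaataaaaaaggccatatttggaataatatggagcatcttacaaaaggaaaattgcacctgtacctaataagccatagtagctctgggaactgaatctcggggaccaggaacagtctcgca
LINC01535: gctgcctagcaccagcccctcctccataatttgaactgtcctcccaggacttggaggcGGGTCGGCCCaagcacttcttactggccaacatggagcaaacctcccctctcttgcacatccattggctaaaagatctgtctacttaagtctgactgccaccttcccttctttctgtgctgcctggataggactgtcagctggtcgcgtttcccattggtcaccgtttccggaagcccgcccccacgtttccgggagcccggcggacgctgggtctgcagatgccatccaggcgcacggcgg

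The LINC00973 window held 1 AP-1 match, which began at -185 from the start. LINC01411 held an AP-1 match at -174 and an NF-kB match at -59. LINC01187 held a TATA match at -32, LINC01535 held an NF-kB match at -192, and LINC01444 held none of the 5 motifs. Over all member promoters 13.3% held the AP-1 letters, against 7.76% of 27305 promoters in the table. The NF-kB letters stood in 38.5% of member promoters against 58.0%, the TATA letters in 15.1% against 12.0%, the ISRE letters in 2.98% against 3.65% and the CRE letters in 1.10% against 1.98%. Member promoters were also poorer in G and C, with a median of 48% against 58.3% for all promoters and 62.7% for protein-coding genes. Within the members the median was 52.3% for the 149 genes with a mean signal of at least 5 and 47.7% for the 488 dimmer ones.

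Signals of LINC probe sets were low. Their median over the 12 arrays was 4.03 (interquartile range 3.35 to 4.81), against 5.13 for all probe sets with 1 symbol, 6.81 for protein-coding genes and 4.28 for the other lncRNA genes. A mean of at least 5 was reached by 210 members (21.8%), against 52.0% of all probe sets with 1 symbol, 66.0% of protein-coding and 30.8% of other lncRNA probe sets. On single arrays between 203 and 227 members reached 5. Signals of different probe sets depend on probe affinity, so these shares compare classes and not single genes. The median SD within groups was 0.281 for members and 0.246 for all probe sets.

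**Figure D1:**
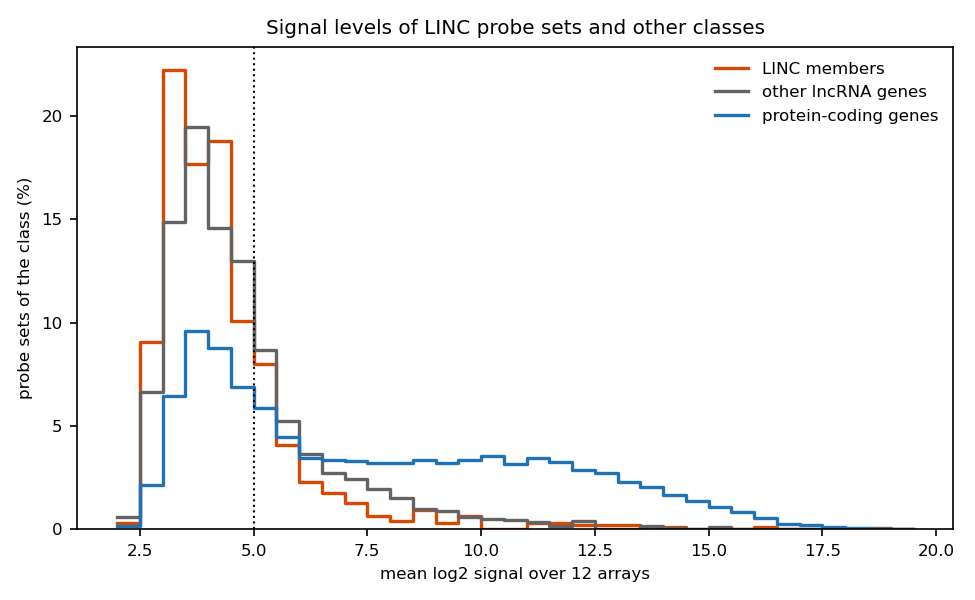
Distribution of the mean log2 signal over 12 arrays (x axis) as the percentage of probe sets of a class (y axis), for LINC members, other lncRNA genes and protein-coding genes in bins of 0.5. The dotted line marks a signal of 5, which 21.8% of members, 30.8% of other lncRNA and 66.0% of protein-coding probe sets reached.

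The 8 brightest members were LINC01002, LINC00674, LINC01000, LINC01128, LINC03009, LINC00869, LINC00265 and LINC00623. LINC01002 had the highest mean of all members, 16.18, and its 12 signals lay between 16.04 and 16.37. LINC01000 and LINC00265, with means of 13.56 and 12.57, likewise passed in no comparison. LINC03009 also passed in none, with a mean of 13.05. In contrast B, LINC00674 (chromosome 17), at a mean of 14.34, and LINC01128 (chromosome 1), at 13.22, were lower in the cells with the repeat, and LINC00869 and LINC00623 were lower in MIO-M1-CTG(648) cells with and without Dox. These 8 members therefore showed no change past the threshold with Dox within a line, and those that passed did so between the lines.

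Within both lines few members changed with Dox. In contrast A 12 of 962 members (1.25%) were past the threshold after removal, 5 higher and 7 lower, against 2.3% of all probe sets with 1 symbol (1.23% higher and 1.07% lower). Before removal there were 13, against 2.42%. The member removed was LINC00707, which rose by 1.35 here and fell by 1.03 with Dox in the cells without repeats. The study kept LINC00707 and lists it in both of its contrasts, with smaller fold changes than here. In both it also lists LINC01187 as higher and LINC00673, which is not a member here, as lower. At a Benjamini-Hochberg adjusted p under 0.05 there were 5, namely LINC00383, LINC00707, LINC00973, LINC01187 and LINC01444, against 0.647%. This rule, here and below, kept the fold limit and made the removal by adjusted p too, and LINC00707 did not reach it with Dox in the cells without repeats. Of the 210 members with a mean of at least 5, 5 were past the threshold (2.38%, against 3.45%). In 11 of the 12 the groups did not overlap. With 3 arrays per group the threshold itself favours this, and the share over all probe sets was not counted. With the methods' t-test on the same values, 2 of these 12 also passed.

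**Figure D2:**
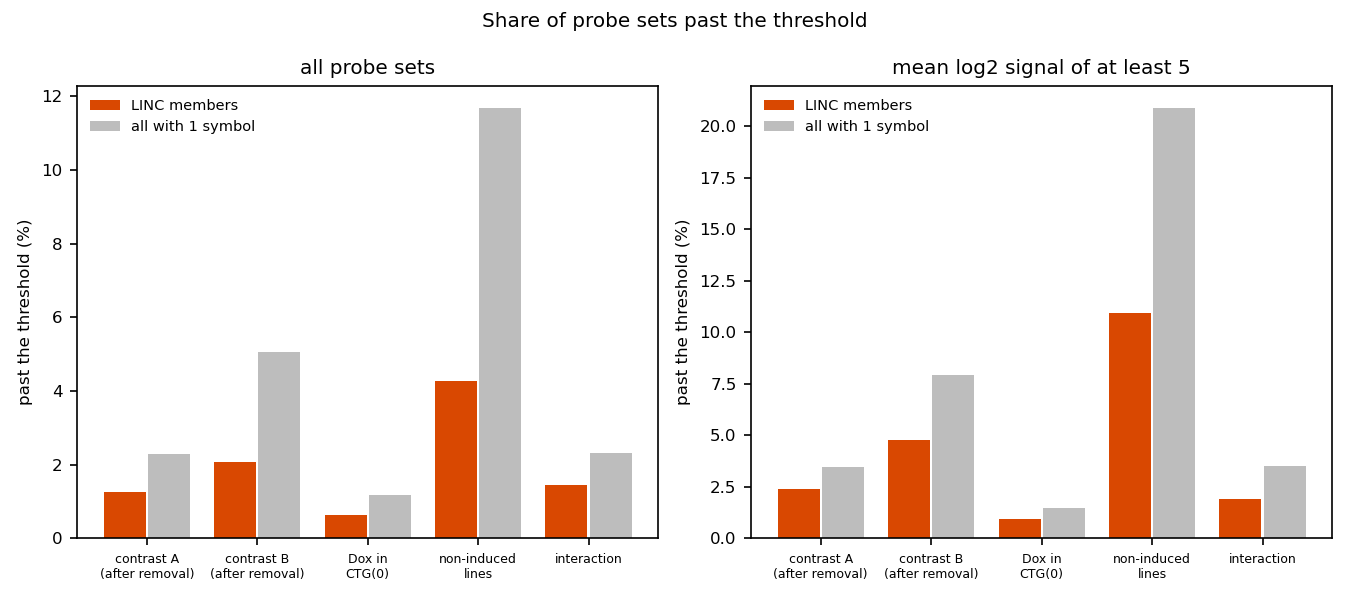
Percentage of probe sets past the threshold (y axis, from 0) in each comparison for LINC members (orange) and all probe sets with 1 symbol (grey), over all probe sets (left) and those with a mean log2 signal of at least 5 (right). Members lay below the background in each of the 5 comparisons, for example 4.26% against 11.7% between the non-induced lines.

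LINC00973, a gene of chromosome 3 that begins 12871 bases from DCBLD2, had the highest log2 fold change in contrast A after removal. Its signals were 6.40, 6.86 and 7.28 in MIO-M1-CTG(648) cells without Dox and 8.06, 8.07 and 8.28 after Dox. In MIO-M1-CTG(0) cells they were 7.89, 7.48 and 7.74 without Dox and 7.19, 6.88 and 7.29 with it. The Dox-induced arrays with the repeat thus lay above the other 9, and the difference was 1.29 ± 0.21 (SE, adjusted p = 0.0105). The neighbour DCBLD2, a transmembrane receptor gene at the top of the signal range, differed by 0.00 in contrast A. The Dox effect of LINC00973 in MIO-M1-CTG(0) cells, -0.58, was not past the threshold (adjusted p = 0.479).

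LINC01187, on chromosome 5 and reported as a marker of a renal tumour type, was the 1 member past the threshold in both contrast A and contrast B after removal. Before removal LINC00707, LINC00973 and LINC01579 also passed in both. Its signals were 4.12, 3.99 and 3.99 in non-induced and 4.89, 4.57 and 4.97 in Dox-induced MIO-M1-CTG(648) cells, against 4.26, 4.52 and 4.36 and then 3.89, 4.18 and 4.29 in MIO-M1-CTG(0) cells. The 3 Dox-induced MIO-M1-CTG(648) arrays were the highest of the 12, all below 5. The difference was 0.78 ± 0.16 in contrast A (SE, adjusted p = 0.0427) and 0.69 ± 0.16 in contrast B (adjusted p = 0.0104). In contrast B it was no longer past the threshold without the first Dox-induced MIO-M1-CTG(0) array or by the methods' t-test.

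LINC01444, on chromosome 18, was the brightest member past the threshold in contrast A. It measured 9.23, 9.76 and 9.66 in MIO-M1-CTG(648) cells without Dox and 8.15, 8.52 and 8.43 after Dox, a difference of -1.18 ± 0.18 (SE, adjusted p = 0.00659). In MIO-M1-CTG(0) cells it measured 8.54, 8.54 and 8.85 without Dox and 8.67, 8.71 and 8.37 with it. The non-induced MIO-M1-CTG(648) arrays stood above all others, and the Dox-induced ones overlapped the lower end of the MIO-M1-CTG(0) arrays. LINC01444 kept its side of the threshold in contrast A under all 22 alternatives tried, as did LINC01187 under all 21. Several of these, such as leaving out an MIO-M1-CTG(0) array, cannot move the contrast A fold change and alter only its p.

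LINC00383 (chromosome 13) measured 4.69, 4.29 and 3.78 in non-induced and 3.26, 2.96 and 2.87 in Dox-induced MIO-M1-CTG(648) cells, a difference of -1.22 ± 0.25 (SE, adjusted p = 0.0402), at signals where most members lie. The nearest coding gene, KLHL1, lay 378496 bases away and differed by 0.61 in the opposite direction. LINC02585, whose start lies 882 bases from that of CELSR3 on the other strand, fell by 0.88 (adjusted p = 0.0746). LINC01220 lies 12174 bases from FOS, an AP-1 subunit gene. It fell by 0.80 (adjusted p = 0.13), from 5.26, 4.90 and 5.92 to 4.45, 4.47 and 4.75, while FOS differed by -0.68, which was not past the threshold (adjusted p = 0.226).

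The other members of contrast A had log2 fold changes of 0.61 for LINC01515, 0.63 for LINC00645 and 0.81 for LINC01179, and of -0.92 for LINC01579, -0.69 for LINC00607 and -0.69 for LINC01132. Their adjusted p lay between 0.134 and 0.195. LINC00607, LINC01132, LINC01515 and LINC01179 kept their side of the threshold in between 5 and 10 of 21 or 22 alternatives, and LINC01579 in 11 of 22. LINC00607 is known as a transcript of endothelial cells.

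With Dox in MIO-M1-CTG(0) cells, which carried no repeat, 6 members were past the threshold (0.624%, against 1.18%), 1 higher (against 0.58%) and 5 lower (against 0.6%). None passed at an adjusted p under 0.05 (against 0.0166%), while an unadjusted p under 0.05 was found for 88 of 962 (9.15%, against 8.39% overall). The direction of these few calls was not stable. Without the second Dox-induced MIO-M1-CTG(0) array 9 were higher and 4 lower, without the third 7 and 3, and a fit of only the groups compared gave 5 and 5. Over all probe sets 1.11%, 0.990% and 0.912% passed in these fits. Of the members with a mean of at least 5, 2 passed (0.952%, against 1.45%). LINC01411, on chromosome 5, measured 7.34, 7.62 and 7.69 without Dox and 6.36, 6.61 and 6.13 with it, and fell by 1.18 ± 0.18 (SE, adjusted p = 0.0699). The other 4 that fell were LINC01142 (-1.07), LINC00707 (-1.03), LINC01605 (-0.94) and LINC01204 (-0.80), and LINC00604 rose by 0.92, all with adjusted p between 0.277 and 0.347. The methods' t-test also called 1 of the 6.

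A change with Dox past the threshold in 1 line and not in the other does not show that the lines differ, so the difference of the Dox effects, the interaction, was tested. It was past the threshold for 14 members (1.46%, against 2.32%), 6 higher (against 1.1%) and 8 lower (against 1.22%) in MIO-M1-CTG(648) than in MIO-M1-CTG(0) cells. The 14 include both LINC00685 probe sets, whose values are identical, so they stand for 13 distinct measurements. For members with a mean of at least 5 the count was 4 (1.90%, against 3.52%). Adjusted p was under 0.05 for 3, LINC00707, LINC00973 and LINC01411 (against 0.47%). LINC00707, which is reported as raised in several carcinomas, measured 5.97, 6.94 and 6.77 in non-induced and 7.73, 8.05 and 7.96 in Dox-induced MIO-M1-CTG(648) cells. Without repeats it measured 6.46, 6.41 and 6.91 before and 5.45, 6.02 and 5.22 after Dox. The non-induced lines overlapped, and with Dox the lines moved apart in opposite directions.

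The interaction of LINC00707 was 2.38 ± 0.37 (SE, adjusted p = 0.0135), that of LINC00973 1.87 ± 0.30 (adjusted p = 0.014) and that of LINC01411 1.50 ± 0.25 (adjusted p = 0.0171). These were made up in different ways. LINC00707 had log2 changes with Dox of 1.35 with the repeat and -1.03 without it, whereas LINC01411 differed by 0.32 ± 0.18 in MIO-M1-CTG(648) cells, which was not past the threshold, and its interaction rested on the fall in MIO-M1-CTG(0) cells. Their neighbours PRKCQ, DCBLD2 and MSX2 had interactions of 0.21, 0.15 and 0.12, none past the threshold. All 3 members kept their side of the threshold under each of 20 alternatives, while of the interactions with higher adjusted p those of LINC01392, LINC01179 and LINC00685 were lost under most.

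**Figure D3:**
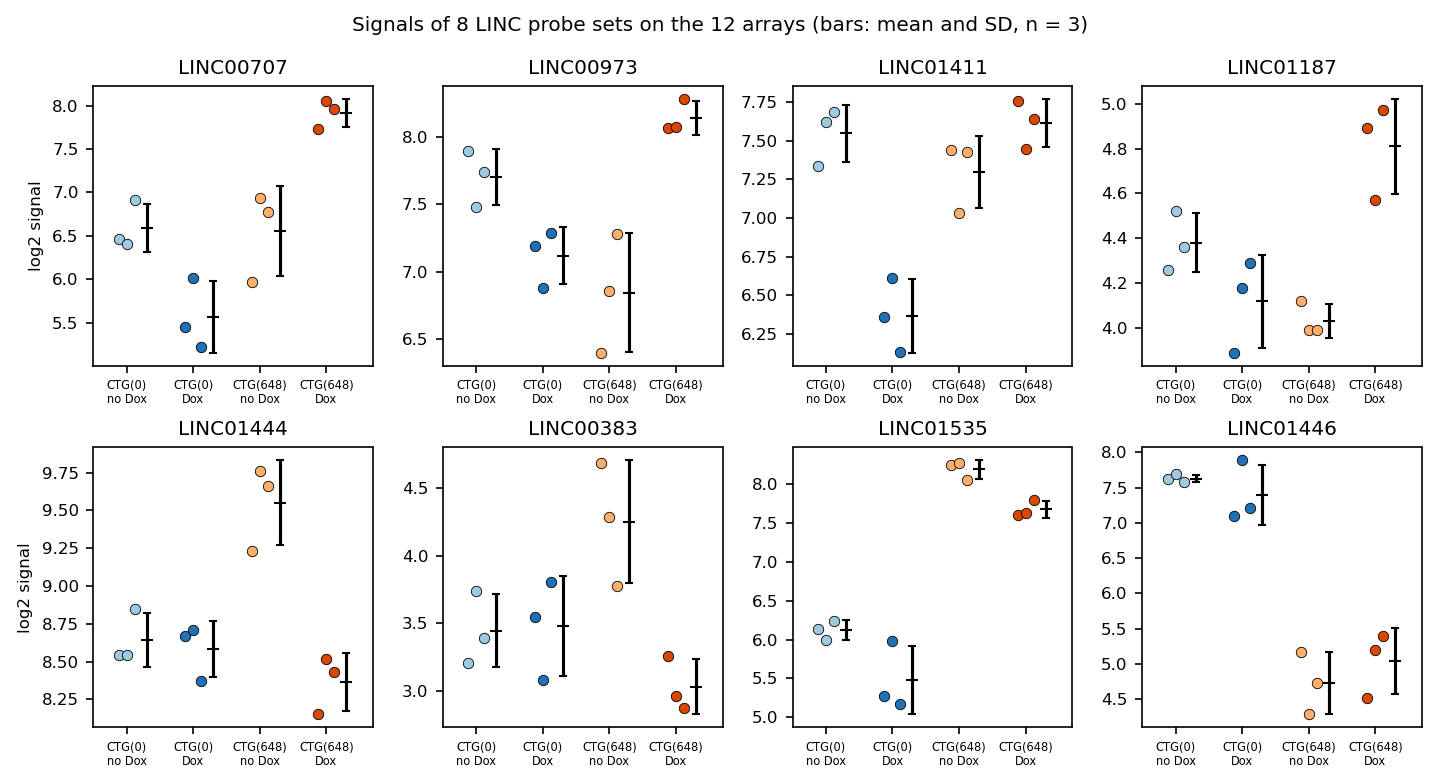
Log2 signals (y axis, separate scale per panel) of 8 LINC probe sets on each array by line and Dox (x axis), with the group mean and SD (n = 3). LINC00707, LINC00973 and LINC01187 were highest in all 3 Dox-induced MIO-M1-CTG(648) arrays, LINC01411 was lowest in Dox-induced MIO-M1-CTG(0) arrays, and LINC01535 and LINC01446 differed between the lines with and without Dox.

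Between the Dox-induced lines, 42 members were past the threshold (against 11.7% of all probe sets before removal). Once members that already passed without Dox were removed, 20 were left (2.08%, against 5.05%), 10 higher (against 2.86%) and 10 lower (against 2.19%) in MIO-M1-CTG(648) cells. For members with a mean of at least 5 the count was 10 (4.76%, against 7.9%), and 23 had an adjusted p under 0.05 (against 5.28%). The methods' t-test also called 6 of the 20. Between the non-induced lines 15 of the 20 differed in the same direction as with Dox. The share over all probe sets was not counted for this.

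LINC00707 was the highest of them, with 7.73, 8.05 and 7.96 against 5.45, 6.02 and 5.22. It was followed by LINC01173 (1.31 ± 0.28), LINC01411 (1.25 ± 0.18), LINC01023 (1.22 ± 0.19) and LINC01354 (1.07 ± 0.22), with standard errors of the log2 fold change and adjusted p between 0.000369 and 0.00758. LINC01023, a short gene of chromosome 5 near FER, measured 6.21, 6.16 and 6.05 against 4.90, 5.01 and 4.86. The values show little spread within groups, and FER, a tyrosine kinase gene 19636 bases away, differed by 0.14. LINC01224 measured 8.85, 9.07 and 9.10 against 8.62, 8.31 and 8.00. LINC00458, known from human pluripotent stem cells, LINC00366, LINC00307 and LINC01187 were higher by 0.64 to 0.72. LINC00366 was not past the threshold in 13 of 21 alternatives, among them the replicate block. For LINC01224 this was so in 6 of 22 and for LINC00458 in 4 of 22.

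Down-regulated in contrast B were LINC00853 (-1.15 ± 0.29), LINC00840 (-1.04 ± 0.25), LINC01068, LINC00941 (-0.79 ± 0.21) and LINC00604 (-0.77 ± 0.21). LINC01068 measured 4.06, 3.30 and 3.89 against 4.73, 4.81 and 4.70. LINC00941, studied in keratinocyte differentiation and in carcinomas, measured 7.90, 8.08 and 8.41 against 9.04, 9.13 and 8.58. Of the bright members LINC00674 measured 14.04, 14.00 and 14.08 against 14.49, 14.62 and 14.60. LINC00847, LINC02210, LINC01128 and LINC00968 had log2 fold changes of -0.61, -0.61, -0.55 and -0.54. LINC02210 was not past the threshold in 7 of 22 alternatives, LINC00674 in 6, LINC00941 in 5, and LINC00847 and LINC01128 in 3. Of 21 alternatives this was so in 5 for LINC01068 and LINC00604, in 4 for LINC00853 and in 2 for LINC00840. LINC00847 overlaps the zinc finger gene ZFP62 on the other strand, which differed by -0.62 (adjusted p = 0.0081). LINC02210 shares its strand and first bases with the readthrough gene LINC02210-CRHR1, which differed by -0.18. How the array separates such overlapping genes was not looked up here.

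Without Dox, nearly as many members differed between the lines as the 42 found with Dox before removal. There were 41 probe sets (4.26%, against 11.7%) for 40 symbols, 15 higher (against 5.63%) and 26 lower (against 6.11%) in MIO-M1-CTG(648) cells. For members with a mean of at least 5 the count was 23 (11.0%, against 20.9%), and 46 had an adjusted p under 0.05 (against 12.5%). The first principal component over the members, with 24.5% of the variance, placed the MIO-M1-CTG(0) arrays between -5.57 and -4.06 and the MIO-M1-CTG(648) arrays between 4.30 and 5.71. The methods' t-test also called 16 of the 41.

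LINC01446 (chromosome 7) was the lowest, at 5.16, 4.28 and 4.73 in MIO-M1-CTG(648) against 7.62, 7.69 and 7.58 in MIO-M1-CTG(0) cells, a difference of -2.91 ± 0.27 (SE, adjusted p = 1.1e-05). LINC01599 (chromosome 14) measured 5.64, 5.70 and 5.78 against 7.76, 7.92 and 8.00, a difference of -2.19 ± 0.14 (adjusted p = 3.8e-07). LINC01599 overlaps VCPKMT, a lysine methyltransferase gene on the same strand, which differed by -0.40 and was not past the threshold. LINC00622, LINC01142, LINC01605, LINC02915 and LINC00467 followed, with log2 differences of -2.10, -1.79, -1.49, -1.49 and -1.45. The LINC01446 and LINC01599 arrays of the 2 lines were thus well apart.

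Higher in MIO-M1-CTG(648) cells was LINC00470 (chromosome 18), at 5.81, 4.27 and 6.10 against 2.97, 2.94 and 3.02. Its difference was 2.42 ± 0.42 (SE, adjusted p = 0.00159), with a wide spread in the cells with the repeat. LINC01535 (chromosome 19) measured 8.24, 8.27 and 8.05 against 6.13, 5.99 and 6.24, a difference of 2.07 ± 0.19 (adjusted p = 1.08e-05). LINC01579, LINC01151 and LINC02860 were higher by 2.07, 1.39 and 0.99. LINC01535 begins 3145 bases from the zinc finger gene ZNF383, which differed by 0.24 between the non-induced lines, not past the threshold, and by 0.74 between the Dox-induced lines, past it (adjusted p = 0.00337).

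The differences between the lines were compared with and without Dox, on separate arrays. Of the 41 members 33 had the same direction with Dox, and 22 were past the threshold there as well, 21 of them in the same direction. The exception was LINC00973, at -0.86 ± 0.21 (SE) without Dox and 1.02 ± 0.21 with it. Of all probe sets with 1 symbol, 4247 passed without Dox and 4227 with it, of which 1826 were left after removal. For members these counts were 41, 42 and 20. The share with the same direction was not counted over all probe sets. With Dox LINC01446, LINC01599, LINC01535 and LINC00470 differed by -2.36, -2.35, 2.20 and 2.38, close to the values without Dox. LINC00051, LINC00407, LINC00671, LINC01291, LINC01444, LINC01467 and the dimmer LINC01579 probe set had the other direction with Dox and did not pass there.

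**Figure D4:**
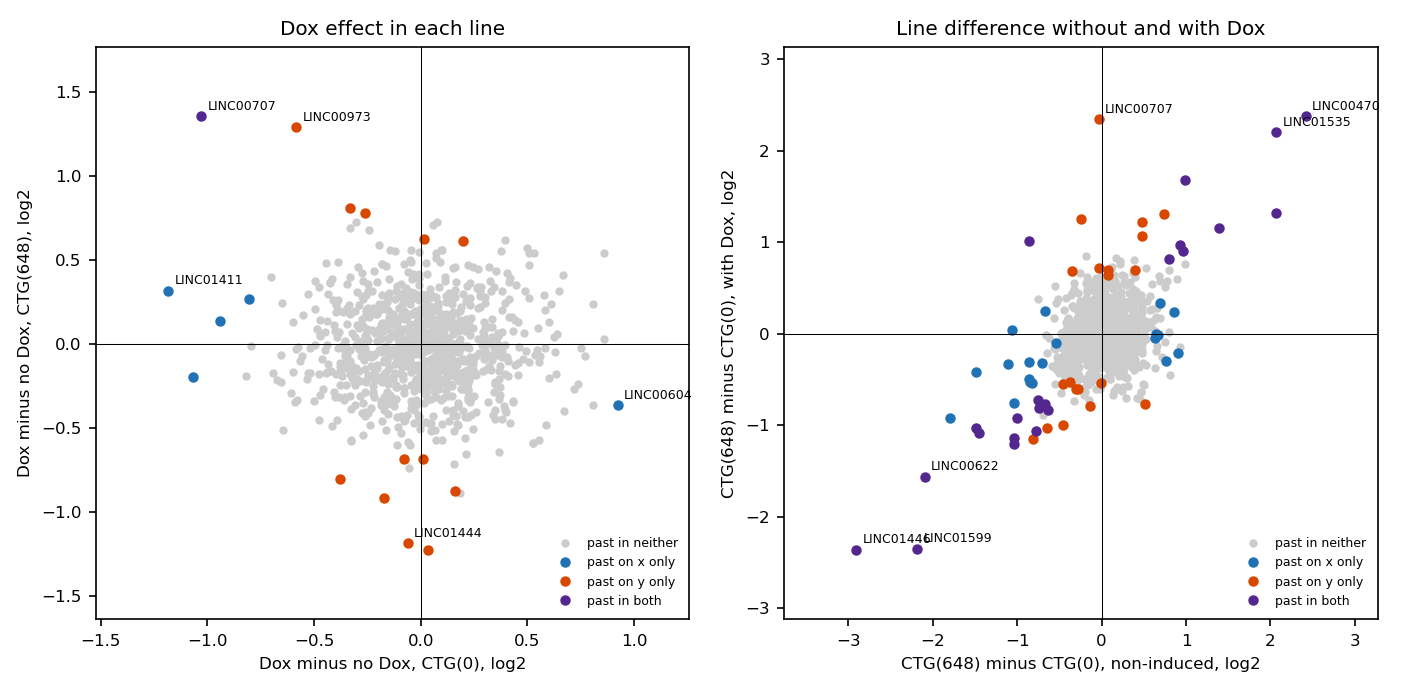
Each point is 1 LINC probe set. The left panel plots the log2 change with Dox in MIO-M1-CTG(0) cells (x) against that in MIO-M1-CTG(648) cells (y), and the right panel plots MIO-M1-CTG(648) minus MIO-M1-CTG(0) without Dox (x) against the same with Dox (y), with colours for the axis on which the threshold was passed. LINC00707 lies at -1.03 and 1.35 on the left, and 22 members passed on both axes on the right.

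Several of the bright members lower in MIO-M1-CTG(648) cells lie around the centromere of chromosome 1, a duplicated part of the genome in which probes can match more than 1 copy. This region was looked at after the values had been seen. LINC00622, both LINC00623 probe sets, LINC01138 and LINC00869 had line differences of -2.10, -0.74, -0.70, -0.67 and -0.63 without Dox, and with Dox of -1.56, -0.81, -0.89, -0.77 and -0.83. All but the dimmer LINC00623 probe set were past the threshold in both comparisons. LINC00624, the other member there, differed by 0.07 without Dox. Among the 134 other probe sets that start between LINC00622 and LINC00869 the median difference between the non-induced lines was -0.14 and 12.7% were past the threshold, against 10.7% on the rest of the chromosome. Of these 134, 13 were past it as lower and 4 as higher.

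Neighbouring coding genes were compared for the 944 lncRNA-typed members. The nearest coding gene lay on the other strand with starts within 5 kb for 30 of them, whether or not the bodies overlapped. Of the rest it overlapped 59, and 855 lay apart. Both strands were known for 509 of the 944, so only these could be counted among the 30. The median distance was 49520 bases, and 851 members had a measured neighbour. Between the non-induced lines the neighbour was past the threshold for 11 of 36 members that passed themselves (30.6%) and for 198 of 815 that did not (24.3%). It had the same direction as the member in 10 of the 11 and in 110 of the 198. With Dox, before removal, the shares were 8 of 37 (21.6%) and 180 of 814 (22.1%), with the same direction in 6 of the 8. No test was made of these counts. Examples without Dox were LINC00467 with TRAF5 (-1.45 and -0.97), a signalling adaptor gene of TNF receptors, LINC00622 with ZNF697 (-2.10 and -1.13) and LINC01151 with the repressor gene ZHX2 (1.39 and 1.92). In contrast A 1 of 12 neighbours (8.33%) was past the threshold, in the opposite direction to its member, against 39 of 839 (4.65%) for the other members.

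Members were unevenly spread over the genome. Chromosome 13 carried 139 of them, or 14.4%, against 2.81% of all probe sets with 1 symbol, and 16 of the 139 had a mean of at least 5. Of the chromosome 13 members 1 passed in contrast A and 3 in each of contrast B and the comparison of non-induced lines. Chromosomes 11 and 19, which are rich in coding genes, carried 19 and 18 members.

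For 24 symbols there were several probe sets, 51 in all. LINC01579 had 2 that both passed between the non-induced lines, at 2.07 and 0.63. Its dimmer probe set did not follow in contrast A (-0.30 against -0.92) and had no difference with Dox between the lines (-0.04 against 1.32). For LINC01605 the probe set past the threshold was the dimmer one, at a mean of 3.19 (-1.49, against -0.30 for the brighter one). The 2 LINC01322 probe sets went in opposite directions, at -1.11 and 0.12. Probe sets of LINC00102 and of LINC00685 on chromosomes X and Y held identical values and count as 1 measurement each.

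Of 19 listed LINC genes that are well studied, 9 were measured under these symbols, with 10 probe sets, and none of the 9 listed symbols known to encode small proteins was measured. LINC00707 and LINC00941 were past the threshold, as described. LINC00632, which contains the circular RNA CDR1-AS, had signals between 7.71 and 8.34. LINC00473, a target of cAMP and CREB signalling, had signals between 4.21 and 5.11, and LINC00520, an enhancer-associated transcript of endothelial cells, between 5.19 and 6.43. The 2 LINC00511 probe sets lay between 2.55 and 3.87 and between 4.86 and 6.02, LINC01614 between 2.76 and 3.80, LINC00305 between 3.62 and 4.25, and LINC00261, next to FOXA2 and known from endoderm, between 3.21 and 4.16. None of these 8 probe sets was past the threshold in any comparison.

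Since the platform was annotated, 21 members have received other symbols in RefSeq, 9 of them as protein-coding genes. The brightest of these were LINC01513, now ROPN1L, with signals between 5.58 and 6.51, LINC00083 (CLEC20A), between 5.52 and 6.16, and LINC01336 (GCNT4), between 5.15 and 6.25. LINC00341, now the nuclear envelope gene SYNE3, lay between 3.88 and 4.84, LINC00684 (FAM236A) between 4.31 and 4.81 and the brighter LINC01183 probe set (CCDC192) between 4.06 and 4.68. None of the 21 was past the threshold in any comparison, so no call above rested on a gene that RefSeq now types as coding. Of all members 73 were past the threshold in at least 1 of the 5 comparisons and 889 in none, and 6 passed in at least 3 after removal, namely LINC00604, LINC00707, LINC00973, LINC01187, LINC01411 and LINC01444. Before removal there were 7, with LINC01579. The shares over all probe sets were not counted for these numbers.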

How the data were processed

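RNA of 12 cultures was hybridized to Clariom D Human arrays. The authors deposited log2 signals with 2 decimals, made by RMA background correction and quantile normalization. The submitters' notes name RMA and hg38, and versions were not stated in the sources read. The values were used without further normalization. Arrays have no read depth, and their number limits the precision.

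Symbols came from the platform annotation, and gene types, spans and promoters from RefSeq (GRCh38.p14). By Entrez ID 860 members were matched, by symbol 81 and by synonym 21. The nearest coding gene entered with its brightest probe set.

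The 36176 probe sets with 1 symbol were fitted in 4 groups with limma 3.58.1 under R 4.3.3 (8 residual and 5.11 prior degrees of freedom), and the script was tested on simulated data. The threshold is that of the study's methods, whose p is read as unadjusted. Adjusted p-values are Benjamini-Hochberg values.

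Named were the highest and lowest 8 past the threshold without overlap in contrasts A and B, 5 in the other comparisons, the 8 brightest, members past in both contrasts, those in the study's tables, recoded members, 2 lists of known LINC genes and probe sets in opposite directions. Further members are named where counts are listed. Members and lists were chosen with earlier results of these data known.

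Alternatives were an intensity trend, array weights, fits of only the groups compared, the methods' t-test, the replicate number as a block, another quantile normalization, median centring, a filter on dim probe sets, means per symbol, adjusted p, a log2 fold change above 1, other removal rules and each array left out. A fit of all 135750 probe sets was added after the values were seen. The intensity trend, the replicate block and leaving out an array outside the groups compared keep the fold change and alter only its p.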

Additional observations from a re-analysis of the deposited data

Results flagged for a closer look

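The Dox effect differed between the lines, by the interaction term of limma at the threshold, for 14 probe sets, of which the 2 for LINC00685 hold identical values. It was higher in MIO-M1-CTG(648) cells by 2.38 for LINC00707, 1.87 for LINC00973, 1.50 for LINC01411, 1.14 for LINC01179, 1.07 for LINC01204 and 1.04 for LINC01187, on the log2 scale. It was lower, with values of -1.29 for LINC00604, -1.26 for LINC00383, -1.17 for LINC01392, -1.12 for LINC01444, -1.11 for each of the identical LINC00685 probe sets, -1.07 for LINC00407 and -1.04 for LINC02585. The adjusted p was 0.0135, 0.014 and 0.0171 for the first 3 and lay between 0.0723 and 0.214 for the others.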

How the results depend on the processing

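The counts reported were 12 members in contrast A, 20 in contrast B, 6 with Dox in MIO-M1-CTG(0) cells, 41 between the non-induced lines and 14 for the interaction. The methods' t-test called 3, 11, 3 and 16 members in the first 4 comparisons. Of all probe sets with 1 symbol it called 1.12%, 3.77%, 0.351% and 5.82%. A log2 fold change above 1 left 3, 10, 3 and 17, and all 14 of the interaction. Of all probe sets with 1 symbol it left 0.644%, 1.8%, 0.155%, 4.42% and 1.42% in this order. For the interaction the member share, 1.46%, was thus close to that of all probe sets. At a Benjamini-Hochberg adjusted p under 0.05 there were 5 in contrast A, 0 for Dox without repeats and 3 for the interaction. Of all probe sets with 1 symbol these were 0.647%, 0.0166% and 0.47%. With only probe sets of a mean of at least 5 in a group the counts were 7 in contrast A, 13 in contrast B and 5 for the interaction. Contrast A gave 7 (against 1.73%) when all 135750 probe sets were fitted, an alternative chosen after seeing the data. Contrast B gave 42 (against 11.7%) with no removal. A fit of only the groups compared gave 10 (against 0.912%) with Dox in MIO-M1-CTG(0) cells. Leaving out 1 array at a time gave 7 to 15 in contrast A, 16 to 27 in contrast B, 5 to 13 with Dox in MIO-M1-CTG(0) cells, 29 to 42 between the non-induced lines and 9 to 16 for the interaction. The lowest contrast A count, 7, came without the second non-induced MIO-M1-CTG(0) array, the lowest interaction count, 9, without the third, and the highest count for Dox without repeats, 13, without the second Dox-induced array of these cells. Over all probe sets these fits gave 2.26%, 2.19% and 1.11%. The count for Dox without repeats was also 11 without the second non-induced MIO-M1-CTG(0) or the first Dox-induced MIO-M1-CTG(648) array, and 10 without the third Dox-induced MIO-M1-CTG(0) array, the second non-induced MIO-M1-CTG(648) array or the third. In these fits the share over all probe sets lay between 0.990% and 1.22%. The cause of these moves was not tested. Deviations of samples with the same replicate number correlated between -0.078 and 0.073. No shift common to a replicate number was thus seen, but this cannot tell whether such samples were handled together. The replicate block gave 12, 24, 8, 39 and 11 in the order above. Of all probe sets with 1 symbol the block gave 2.19%, 4.75%, 1.09%, 11.3% and 2.08%. Over 75 named results past the threshold and their alternatives, 1344 of 1602 values stayed past it, 258 did not and 0 changed direction. Many of these alternatives could not move the fold change, so the counts overstate how far it was probed. Most members lie under a signal of 5, and the distance of such signals from the array's background was not measured here.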
